A study of Mus musculus with 10 samples.

Results

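The genes described here are the 3 KDEL receptor genes Kdelr1, Kdelr2 and Kdelr3, together with 7 genes of the ARF GTPase cycle: the GTPases Arf1, Arf4, Arf5 and Arl1, the exchange factor Gbf1 and the GTPase-activating proteins Arfgap2 and Arfgap3. They were taken by name, as 10 of 21887 genes that RefSeq annotates as protein-coding on GRCm38.p6 (build mm10), and a peak was counted for a gene where its summit lay between 5 kb before and 5 kb after the gene. The 10 genes were chosen with earlier results of these data known, which may shape their contrasts with all genes. The data were lists of XBP-1 binding sites in liver of C57BL/6J mice, from chromatin immunoprecipitation with an antibody against Xbp-1s (Santa Cruz sc7610x) and sequencing. There were 8 immunoprecipitated libraries in 4 groups of 2, and 2 input libraries of liver DNA without immunoprecipitation. The groups were wild-type mice that had been fasted (Fasted), wild-type mice that had been fed (Fed), mice with a liver-specific knockout of Ern1 (Ern1-LKO) and the wild-type mice set against that knockout (WT). The labels give no fasting length, no feeding state for the Ern1-LKO and WT mice, no age, sex or Cre driver, and no word on which libraries came from separate animals. Permutation p-values therefore measure only the spread between these libraries, which may be technical.

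Ern1 encodes IRE1alpha, the endoplasmic reticulum (ER) stress sensor whose nuclease removes an intron from Xbp1 mRNA. The spliced message encodes XBP-1s, which drives transcription in the unfolded protein response. Soluble ER proteins that escape to the Golgi are caught there by KDEL receptors, which recognise a signal at the end of the protein and return it to the ER in vesicles with a COPI coat. ARF GTPases recruit that coat when an exchange factor such as GBF1 loads them with GTP, and GTPase-activating proteins of the ARFGAP family, which act with the coat, switch them off. In liver, which secretes most plasma proteins, this retrieval route works beside a heavy outward traffic.

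Tags kept after removal of repeats at a position came to 8.38M and 9.62M for Fasted, 17.4M and 7.77M for Fed, 12M and 4.34M for Ern1-LKO and 14.07M and 9.18M for WT. The authors' lists held 53973 and 19237 peaks for Fasted, 82975 and 47357 for Fed, 698 and 30796 for Ern1-LKO, and 6258 and 30327 for WT. Ern1-LKO replicate 1 stood apart with the shortest list in spite of its 12M tags, and the main counts that rest on it are given with and without it. Ern1-LKO replicate 2, on which the latter counts rest, had the fewest kept tags. It also had the highest rate of redundant tags, 0.47, against 0.09 and 0.32 in WT. Fasted and Fed peaks were called against a different input library from Ern1-LKO and WT peaks, so groups were compared only within those pairs. Peak lists hold no expression values, so neither the tissue nor the Ern1 deletion could be checked against marker genes.

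The leading site of each gene was defined as the peak with the strongest q-value over the libraries and the summits within 250 bp of it. RefSeq promoter windows, from 250 bases before to 50 bases after the annotated start, were matched for 9 of the 10 genes, and Kdelr2 had no entry. Short stretches of 30 bases are shown because they hold the motif matches nearest to the leading summits, each read in the direction of its gene on GRCm38.p6. In the first 3, capitals mark the unfolded protein response element TGACGTGG, or the same element read from the opposite strand. In the other 4, capitals mark the shorter cores CCACG or ACGTG on either strand. The stretches are chr11:59228228-59228257 on the minus strand for Arf1 and, all on the plus strand, chr15:79516367-79516396 for Kdelr3, chr19:46152535-46152564 for Gbf1, chr10:88731395-88731424 for Arl1, chr14:26638036-26638065 for Arf4, chr6:28423524-28423553 for Arf5 and chr2:91265126-91265155 for Arfgap2.
Arf1: gcggcaggcgcTGACGTGGctgccgtcagc
Kdelr3: tggccgccccgCCACGTCAccgcgcggcca
Gbf1: gaggctagttaCCACGTCAgtgagctgaca
Arl1: gctgggtggacgACGTGgaagttgctggcc
Arf4: tccggtagttcgCACGTcggcgtagcgggc
Arf5: aggggcggggccACGTGacgtcgggcggac
Arfgap2: cactctcaggccCGTGGtggagctcccggc

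The element TGACGTGG stood in the windows of 3 of the 9 genes, Arf1, Kdelr3 and Gbf1, against 0.705% of 21263 RefSeq windows of protein-coding genes, in which both strands were searched. In Arf1 the middle of the element lay a median of 19.0 bp from the summits of 8 libraries, between 9.5 and 77.5 bp. In Kdelr3 that median was 24.0 bp over 6 libraries, and in Gbf1 it was 118.5 bp over 6 libraries. The core CCACG stood in 7 of the 9 windows against 37.4% of all windows, and ACGTG in 6 of the 9 against 20.9%. These motifs overlap: TGACGTGG contains both ACGTG and the reverse of CCACG, and a window with 1 or the other core made up 44.8% of all windows. Kdelr1 and Arfgap3 had neither core in their windows. Their leading summits lay 519 to 575 bp and 188 to 247 bp after the start, beyond the windows' 50 bases, as did those of Arf5 at 335 to 506 bp. All summits of Gbf1, at 52 to 178 bp, also lay beyond the window. So did most of those of Arl1, at 48 to 213 bp, and of Arf4, at 25 to 81 bp. The motif search did not reach the sequence under those summits. The ER stress response elements ERSE and ERSE-II, which hold the core CCACG and were found in 0.141% and 0.0517% of all windows, matched in 0 of the 9.

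Whole windows are printed for the 3 genes with TGACGTGG to show where the element stands relative to the start, which follows base 250. Capitals mark each match of CCACG or ACGTG on either strand. The windows are chr11:59228218-59228517 on the minus strand for Arf1, which has a second annotated start with a window of its own, chr15:79516158-79516457 on the plus strand for Kdelr3 and chr19:46152308-46152607 on the plus strand for Gbf1. Their G and C content was 70.7% in Arf1, 69.7% in Kdelr3 and 53.7% in Gbf1. The Arf1 element lies just after the start, and those of Kdelr3 and Gbf1 lie just before it on the opposite strand.
Arf1 window: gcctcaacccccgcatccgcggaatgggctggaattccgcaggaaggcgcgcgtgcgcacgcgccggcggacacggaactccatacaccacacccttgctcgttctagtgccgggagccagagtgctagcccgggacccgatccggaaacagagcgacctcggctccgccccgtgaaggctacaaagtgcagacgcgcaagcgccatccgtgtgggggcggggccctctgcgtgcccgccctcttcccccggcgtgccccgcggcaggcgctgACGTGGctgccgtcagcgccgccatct
Kdelr3 window: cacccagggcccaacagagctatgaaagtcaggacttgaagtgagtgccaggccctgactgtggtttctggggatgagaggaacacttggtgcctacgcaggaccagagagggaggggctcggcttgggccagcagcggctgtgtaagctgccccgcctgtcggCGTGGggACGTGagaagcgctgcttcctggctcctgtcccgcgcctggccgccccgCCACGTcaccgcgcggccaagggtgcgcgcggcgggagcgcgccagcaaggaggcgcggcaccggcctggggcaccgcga
Gbf1 window: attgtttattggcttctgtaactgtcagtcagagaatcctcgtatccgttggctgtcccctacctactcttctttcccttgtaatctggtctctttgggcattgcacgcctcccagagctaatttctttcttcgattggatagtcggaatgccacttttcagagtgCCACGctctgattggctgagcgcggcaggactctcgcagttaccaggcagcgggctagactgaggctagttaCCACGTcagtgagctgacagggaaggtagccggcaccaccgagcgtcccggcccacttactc

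**Figure D1:**
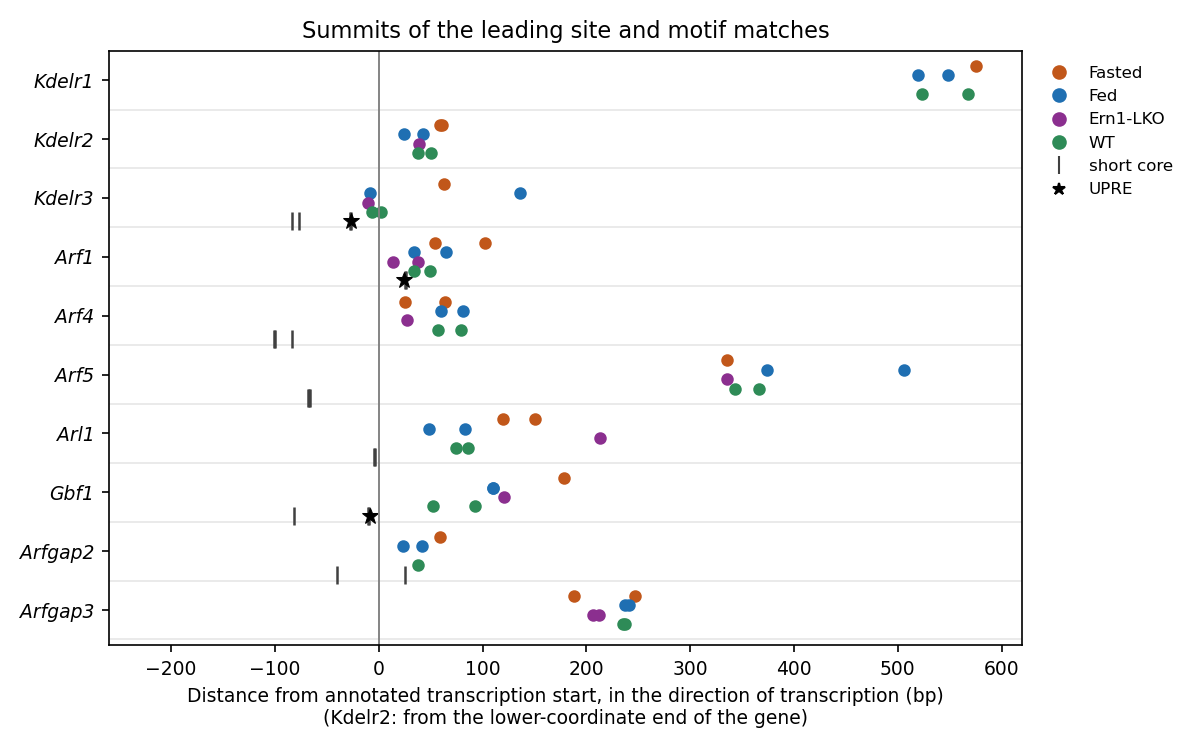
Summits of each gene's leading site, as distance in bp from the annotated start in the direction of transcription (Kdelr2: from the gene's lower-coordinate end). Each dot is 1 library coloured by group, vertical ticks are CCACG or ACGTG matches and stars are TGACGTGG matches in the promoter window; the median summits of 7 genes lie between -2.5 and 110 bp, while those of Arfgap3, Arf5 and Kdelr1 lie further inside the gene.

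Peaks were common at these genes. At least 1 peak was listed for 10 and 7 of the 10 genes in the Fasted libraries and for 10 and 10 in Fed. In the other pair of groups it was listed for 2 and 10 genes in Ern1-LKO and for 9 and 10 in WT. The Fasted and Fed counts stand against 73.1% and 43.6% of all protein-coding genes in Fasted and 76.1% and 71.2% in Fed, so a peak somewhere in the window said little in those libraries. Against 3.58% and 62.4% in Ern1-LKO and 19.6% and 65.0% in WT, the 9 genes of WT replicate 1 and the 2 of Ern1-LKO replicate 1 exceeded the share of all genes, and the other counts did so by less in proportion. Fasted replicate 2 had no peak at Kdelr1, Kdelr3 and Arfgap2, WT replicate 1 none at Arfgap2, and Ern1-LKO replicate 1 listed only Arf1 and Arfgap3.

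The count of genes with a peak averaged 8.5 ± 2.12 in Fasted and 10 ± 0.0 in Fed livers (SD, n = 2 each), and the groups overlapped (difference -1.5, exact two-sided permutation p = 1.0). It averaged 6.0 ± 5.66 in Ern1-LKO and 9.5 ± 0.71 in WT livers (SD, n = 2 each), and these also overlapped (difference -3.5, exact two-sided permutation p = 1.0). Without Ern1-LKO replicate 1 the difference between Ern1-LKO and WT was 0.5, and without Fasted replicate 2 that between Fasted and Fed was 0. In both Fasted libraries 7 of the 10 genes had a peak against 43.2% of all genes, in both Fed 10 against 68.8%, in both Ern1-LKO 2 against 3.54% and in both WT 9 against 18.3%. Arf1 and Arfgap3 had a peak in all 8 libraries, as did 2.64% of all genes. Without Ern1-LKO replicate 1, 7 of the 10 genes had a peak in every remaining library. The share of all genes that did so was not counted, so this rise is not read as particular to the 10 genes. No gene of the 10 was marked in both Fasted libraries and neither Fed library, in the reverse, or likewise between Ern1-LKO and WT. Of all genes, 0.0731% did so for Fasted over Fed, 1.2% for Fed over Fasted, 0.0% for Ern1-LKO over WT and 0.896% for WT over Ern1-LKO.

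Because the lists differed in length, the same number of strong peaks was next taken from each: the 698 with the highest −log10 q, the length of the shortest list. Among those, the genes counted 4 and 2 in Fasted and 7 and 6 in Fed livers, and 2 and 3 in Ern1-LKO and 6 and 6 in WT livers. Per library, 3.91% and 2.93% of all genes had such a peak in Fasted, 3.99% and 3.95% in Fed, 3.58% and 3.83% in Ern1-LKO, and 3.54% and 4.01% in WT. All 8 counts therefore lay above the share of all genes, and both Fasted counts lay below both Fed counts, as both Ern1-LKO counts did below both WT counts. The means were 3.0 ± 1.41 in Fasted and 6.5 ± 0.71 in Fed livers, and 2.5 ± 0.71 in Ern1-LKO and 6.0 ± 0.0 in WT livers (SD, n = 2 each). Both differences were -3.5, each with p = 0.33 in an exact two-sided permutation test, the smallest p that 2 libraries against 2 can give. Without Ern1-LKO replicate 1 the second difference was -3, and without Fasted replicate 2 the first was -2.5. Ordering peaks by fold enrichment in place of q made the first difference -2, and taking 19237 top peaks did the same. Ranks given below are by −log10 q within a list, and ranks beyond 698 come from lists of unequal length, so they give a place in that list and no comparison between groups.

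**Figure D2:**
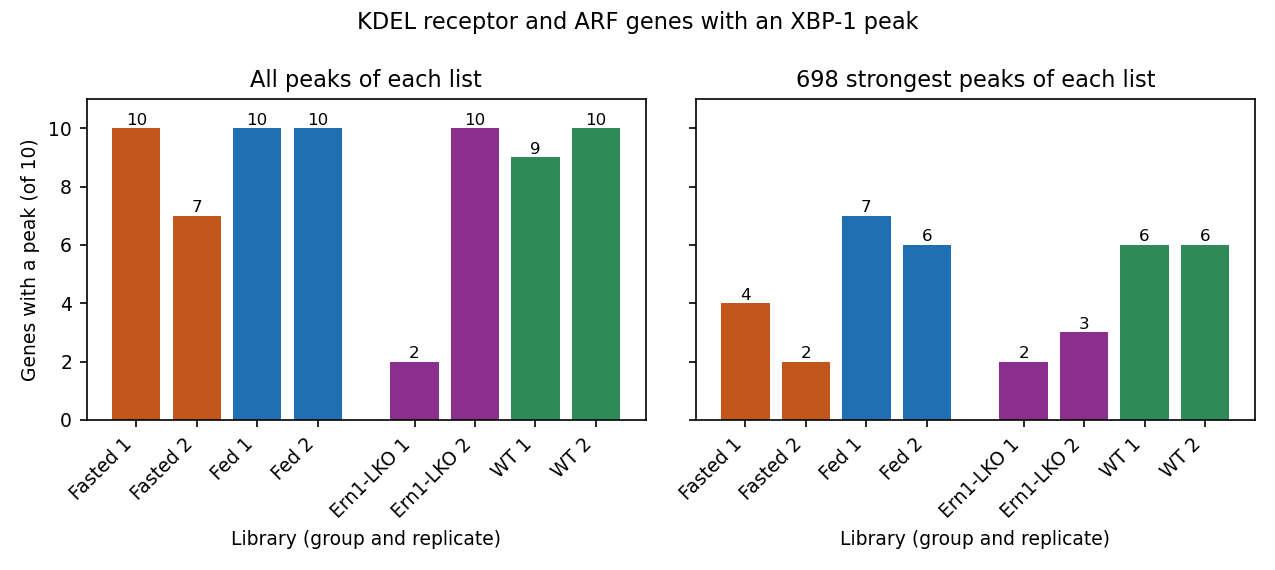
Number of the 10 genes with a peak in each library, from all listed peaks (left) and from the 698 strongest of each list (right). Bars are single libraries; on the right both Fasted bars (4 and 2) are shorter than both Fed bars (7 and 6), and both Ern1-LKO bars (2 and 3) shorter than both WT bars (6 and 6).

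By group, Arf1 and Arf4 had a peak among the 698 strongest in both Fasted libraries, against 1.3% of all genes. In both Fed libraries 6 genes did, namely Kdelr1, Kdelr2, Arf1, Arf4, Arl1 and Arfgap3, against 2.48%. In both Ern1-LKO libraries Arf1 and Arfgap3 did, against 1.86%, and in both WT libraries 5 genes did, namely Kdelr2, Arf1, Arf4, Arl1 and Arfgap3, against 2.36%. Kdelr1 and Arl1 were among the strongest in both Fed and in neither Fasted library, as were 0.932% of all genes, and Arf4 and Arl1 in both WT and in neither Ern1-LKO library, as were 0.923%. Without Ern1-LKO replicate 1 these were again Arf4 and Arl1, against 1.15% of all genes. In the opposite directions there were 0 of the 10 genes, against 0.448% of all genes for Fasted over Fed and 0.635% for Ern1-LKO over WT. Only Arf1 of the 10 held such a peak in all 8 libraries, as did 0.553% of all genes; without Fasted replicate 2, Arfgap3 did as well. Kdelr1 shows how close the limit can be, at rank 599 in WT replicate 1 and rank 699 in WT replicate 2.

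Kdelr2 carried the strongest sites of the KDEL receptors, which bind escaped ER proteins in the Golgi and release them in the ER. Its span is chr5:143403820-143421904, and its leading summits of 7 libraries fell within 37 bp of each other, a median of 43 bp inside the lower-coordinate end. Its strongest peak ranked 141 and 2356 in Fasted and 203 and 146 in Fed livers. In the other groups it was not listed in Ern1-LKO replicate 1, ranked 474 in Ern1-LKO replicate 2, and ranked 190 and 71 in WT. Both Ern1-LKO libraries thus stood below both WT libraries, whereas Fasted replicate 1 ranked above both Fed libraries and Fasted replicate 2 below them. The authors' fold enrichment over input at that peak was 22.2 and 8.40 in Fasted, 18.3 and 23.8 in Fed, 18.7 in Ern1-LKO replicate 2, and 15.4 and 42.4 in WT. Fold and q-value are the authors' values per peak and are used here to describe and rank peaks within a list. The lncRNA gene Gm20635 ends 121 bp from this site.

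Kdelr1, the KDEL receptor gene at chr7:45872840-45883726, had its leading site inside the gene, a median of 548 bp after the start in 5 libraries. The best peak ranked 4118 in Fasted replicate 1 and was not listed in Fasted replicate 2, and ranked 239 and 617 in Fed livers. It was not listed in Ern1-LKO replicate 1, ranked 1418 in Ern1-LKO replicate 2 and ranked 599 and 699 in WT livers. Both Fed ranks were within the 698 strongest and neither Fasted library had it there, while of the other groups only WT replicate 1 did. The best peak of Ern1-LKO replicate 2 had its summit closer to the start, more than 250 bp from the leading site, and was not counted as part of it. Fold enrichment was 11.2 in Fasted replicate 1, 15.4 and 11.9 in Fed, 15.9 in Ern1-LKO replicate 2, and 7.42 and 14.3 in WT.

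Kdelr3, the remaining KDEL receptor gene at chr15:79516408-79527739, ranked below the other receptor genes in every library that listed it, with summits close to the start and to the element shown above. The median summit over 6 libraries was -2.5 bp from the start, and the summits lay 16.5 to 162.5 bp from the middle of the element. It ranked 8486 in Fasted replicate 1 and was not listed in Fasted replicate 2, and ranked 6322 and 1823 in Fed livers. No peak was listed in Ern1-LKO replicate 1, and the rank was 10476 in Ern1-LKO replicate 2 and 2305 and 1040 in WT livers. None of the 8 libraries held it among the 698 strongest peaks. Fold enrichment was 11.5 in Fasted replicate 1, 6.68 and 12.7 in Fed, 8.95 in Ern1-LKO replicate 2, and 6.47 and 21.8 in WT, which in Fasted replicate 1, Fed replicate 2 and WT replicate 2 was above that of Kdelr1.

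**Figure D3:**
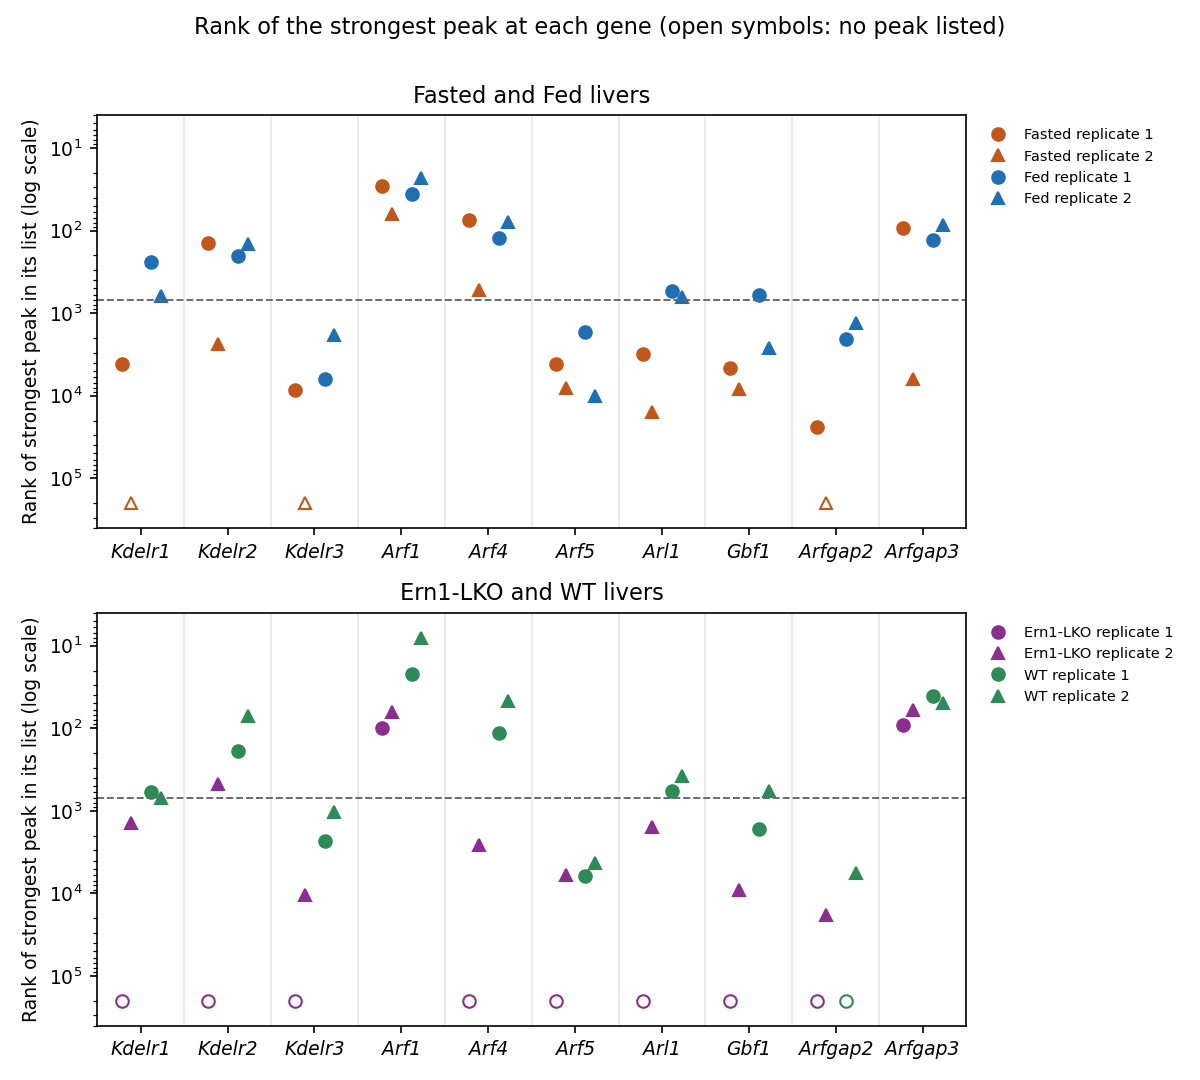
Rank by −log10 q of the strongest peak at each gene, on a log axis with strong peaks at the top, in each library. Filled symbols are single libraries, open symbols at the bottom mark libraries with no listed peak, and the dashed line is rank 698; Arf1 lies above that line in all 8 libraries and Kdelr3, Arf5 and Arfgap2 in none. Ranks below the line come from lists of different lengths.

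Arf1, the GTPase that recruits the COPI coat at the Golgi, had the highest-ranked peak of the 10 genes in all 6 Fasted, Fed and WT libraries. The gene is at chr11:59211412-59228267 on the minus strand. Its leading summits lay 14 to 102 bp after the more upstream of its 2 annotated starts in all 8 libraries. The peak ranked 29 and 63 in Fasted and 36 and 23 in Fed livers, and 99 and 63 in Ern1-LKO and 22 and 8 in WT livers. Fasted and Fed ranks overlapped, while both Ern1-LKO ranks lay below both WT ranks. Fold enrichment was 49.2 and 16.3 in Fasted, 39.6 and 63.5 in Fed, 6.70 and 31.5 in Ern1-LKO, and 31.2 and 64.3 in WT. A weaker site lay beyond the 3′ end in 5 libraries, at best rank 3512, 240 bp from the start of 2310033P09Rik.

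Arfgap3, a GTPase-activating protein for ARF1 that works with the COPI coat, led the 10 genes in both Ern1-LKO libraries. It spans chr15:83299739-83350375 on the minus strand, with summits of all 8 libraries within 59 bp of each other at a median of 236 bp after the start. Its peak ranked 92 and 6202 in Fasted and 129 and 86 in Fed livers, and 92 and 60 in Ern1-LKO and 41 and 49 in WT livers. Fasted replicate 2 was the only library in which it fell out of the 698 strongest. In Ern1-LKO livers it stood just ahead of Arf1, with a −log10 q of 17.9 against 17.3 in replicate 1 and 113 against 111 in replicate 2. Fold enrichment was 31.5 and 6.64 in Fasted, 27.3 and 43.7 in Fed, 7.28 and 32.4 in Ern1-LKO, and 29.0 and 56.1 in WT.

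Arf4, a GTPase of the early secretory pathway, ranked next after Arf1 in 5 of the 6 Fasted, Fed and WT libraries but only at place 6 of the 10 genes in Ern1-LKO replicate 2. The gene is at chr14:26638134-26656842, and its summits lay 25 to 81 bp after the start in 7 libraries. The peak ranked 74 and 529 in Fasted and 123 and 79 in Fed livers, which overlap. It had no listed peak in Ern1-LKO replicate 1, ranked 2631 in Ern1-LKO replicate 2 and ranked 114 and 47 in WT livers. Fold enrichment was 24.6 and 8.49 in Fasted, 18.5 and 31.7 in Fed, 11.3 in Ern1-LKO replicate 2, and 17.4 and 50.9 in WT. In Ern1-LKO replicate 2 the Arf4 peak had a pileup signal of 43.0 at its summit, beside 91.0 at the Arf1 peak and 91.0 at the Arfgap3 peak of the same library.

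Arl1, a GTPase of the trans-Golgi that recruits golgin tethers, is annotated at chr10:88730920-88744094. Its leading summits lay a median of 86 bp after the start used here, in 7 libraries, and the predicted gene Gm4925 begins 399 bp away. The peak ranked 3127 and 15548 in Fasted and 538 and 642 in Fed livers. It was not listed in Ern1-LKO replicate 1, ranked 1574 in Ern1-LKO replicate 2 and ranked 578 and 377 in WT livers. Both Fed libraries stood above both Fasted ones, and both WT libraries above both Ern1-LKO ones. Fold enrichment was 12.8 and 4.29 in Fasted, 9.85 and 13.2 in Fed, 15.0 in Ern1-LKO replicate 2, and 7.91 and 19.2 in WT.

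Arf5, a close relative of Arf4, spans chr6:28423604-28426602 and had no peak among the 698 strongest in any library. Its best peak ranked 4160 and 8113 in Fasted and 1675 and 10006 in Fed livers. It was not listed in Ern1-LKO replicate 1, ranked 5947 in Ern1-LKO replicate 2, and ranked 6194 and 4250 in WT livers. The WT replicate 1 peak stood near the end of its list of 6258 peaks, with a fold of 2.94 and a −log10 q of 1.998. With a −log10 q of at least 5, WT replicate 1 counted 8 of the 10 genes with a peak. In WT replicate 2 the best peak lay 2.1 kb upstream near the start of Gcc1, a gene for a golgin, and the leading site inside Arf5 ranked 4347. A site 252 bp from the Gcc1 start appeared in 4 libraries.

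Gbf1, the exchange factor that loads GTP onto ARF1 at the early Golgi and is blocked by brefeldin A, spans chr19:46152509-46286510. Its leading site lay a median of 110 bp after the start in 6 libraries. That site ranked 4622 in Fasted replicate 1 and was absent from Fasted replicate 2, and ranked 596 and 4235 in Fed livers. It was not listed in Ern1-LKO replicate 1, ranked 10858 in Ern1-LKO replicate 2, and ranked 1648 and 571 in WT livers. Another site in the same window lay 23 bp from the start of Pitx3 in 6 libraries. That Pitx3 site outranked the Gbf1 start in 3 libraries, at rank 8321 in Fasted replicate 2, 2672 in Fed replicate 2 and 9040 in Ern1-LKO replicate 2.

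Arfgap2, the other COPI-associated GTPase-activating protein of the set, spans chr2:91265115-91277371 and had the fewest libraries with a peak at its start. Its leading site lay a median of 40 bp after the start in 4 libraries. It ranked 24203 in Fasted replicate 1 and was not listed in Fasted replicate 2, and ranked 2083 and 1332 in Fed livers. Neither Ern1-LKO library nor WT replicate 1 had a peak at the start, and WT replicate 2 had it at rank 5692. The single best peak of Ern1-LKO replicate 2, at rank 18200, lay upstream of the gene. All these ranks lie beyond 698. Fold enrichment at the start was 5.76 in Fasted replicate 1, 6.86 and 11.1 in Fed, and 6.75 in WT replicate 2.

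**Figure D4:**
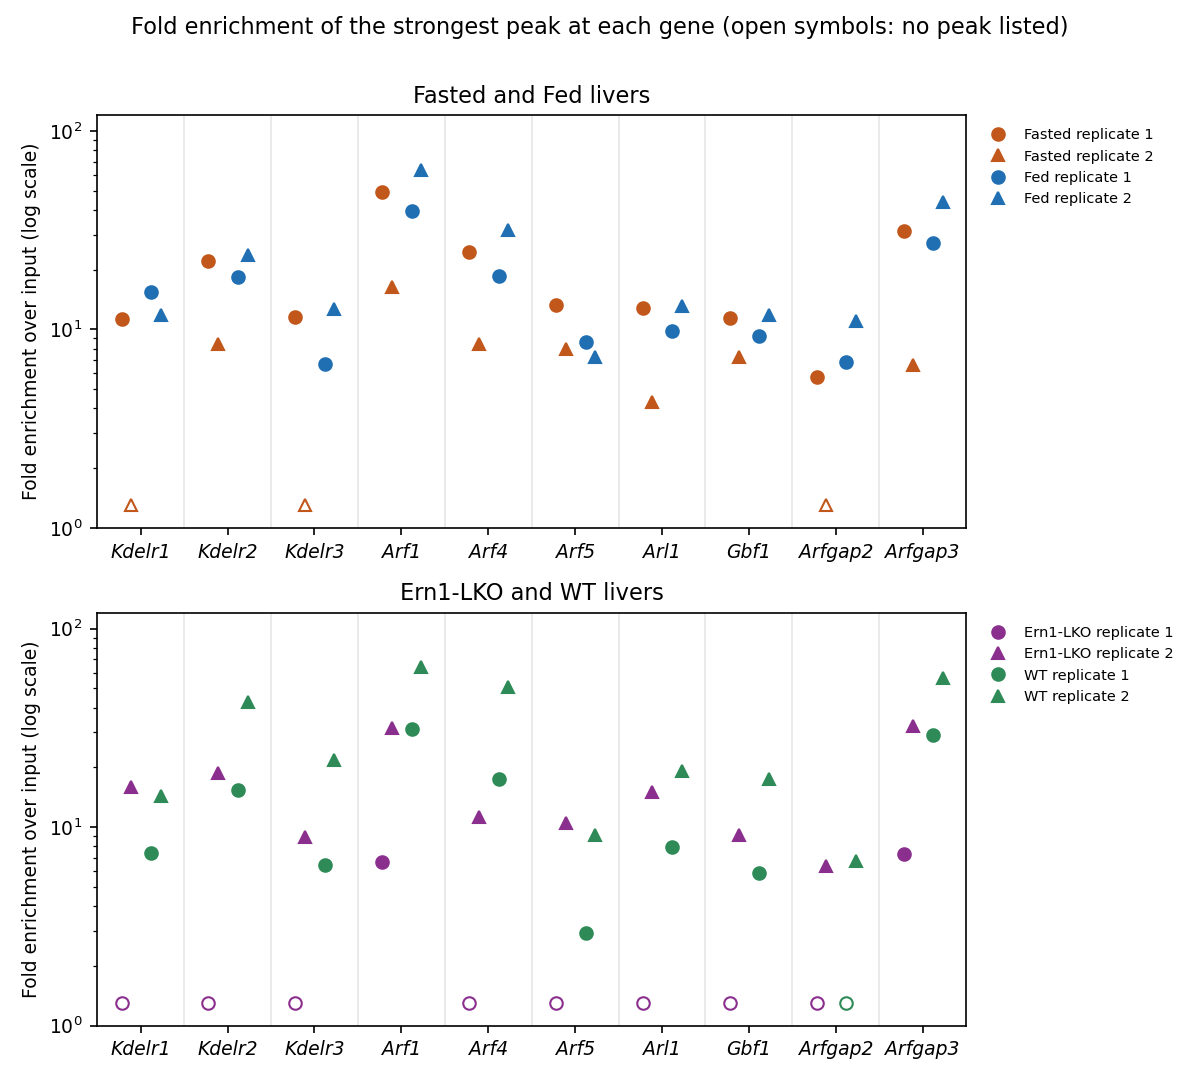
The authors' fold enrichment over input of the strongest peak at each gene, on a log axis, in each library. Filled symbols are single libraries and open symbols at the bottom mark libraries with no listed peak; folds are to be read within a library, since their general level differs between libraries, at Arf1 from 6.70 to 64.3.

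The summits clustered near annotated starts. Of the genes with a start in the promoter table and a peak, 7 of 9 and 5 of 6 had their best summit within 300 bp of a start in the Fasted libraries, and 7 of 9 and 6 of 9 in Fed. In the other groups 2 of 2 and 6 of 9 did so in Ern1-LKO, and 6 of 8 and 7 of 9 in WT. The share among all genes with a peak was 47.8% and 33.4% in Fasted, 48.3% and 47.0% in Fed, 50.3% and 48.2% in Ern1-LKO, and 40.4% and 53.4% in WT. Each gene had between 2 and 11 separate sites in its window over the 8 libraries. For 6 of the 10 genes, Kdelr2, Kdelr3, Arf1, Arf4, Arl1 and Arfgap3, every library with a peak had it at the leading site. This count depended on the distance allowed. It was 4 with summits within 100 bp and 8 with summits within 500 bp or by overlap of peaks. The share of all genes was not counted.

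Ranks within the 698 strongest peaks were also compared gene by gene, counting a gene with no such peak as lowest. A gene with such a peak in only 1 group can rank lower only in the other. Of the 10 genes, Kdelr1 and Arl1 ranked lower in both Fasted than in both Fed libraries. So did 15.1% of the 1937 genes with such a peak in any of the 4 libraries. Neither Kdelr1 nor Arl1 had such a peak in a Fasted library, so this repeats the Fed over Fasted count above. Between the other groups 5 genes, Kdelr2, Arf1, Arf4, Arl1 and Arfgap3, ranked lower in both Ern1-LKO than in both WT libraries, as did 17.8% of 1837 genes. Of these 5, Arf4 and Arl1 had such a peak in no Ern1-LKO library and likewise repeat the count above. In each comparison 7 of the 10 genes had such a peak, and 0 of them ranked lower in both Fed or in both WT libraries, against 8.16% of the 1937 genes and 13.2% of the 1837 genes. In Ern1-LKO replicate 2 alone, the same 5 genes ranked lower than in both WT libraries, as did 23.9% of 1569 genes with such a peak in those 3 libraries. That comparison rests on the library with the fewest kept tags and the highest rate of redundant tags. Fasted replicate 2 and Ern1-LKO replicate 1 also had the shorter list of their group, and the part of list length in these ranks was not tested.

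In the authors' pooled lists, 1 for each group, Arf1 ranked 32 in Fasted and 26 in Fed, and 67 in Ern1-LKO and 15 in WT. Arfgap3 ranked 101 in Fasted and 94 in Fed, and 60 in Ern1-LKO and 28 in WT. Arf4 ranked 87 in Fasted and 122 in Fed, and 3650 in Ern1-LKO and 59 in WT, the Ern1-LKO rank lying beyond 698. Kdelr1 ranked 10534 in the pooled Fasted list and 268 in the pooled Fed list, and Arl1 ranked 4992 in Fasted and 610 in Fed. These 4 lists held 41795 peaks for Fasted, 84544 for Fed, 14428 for Ern1-LKO and 13841 for WT.

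Other genes of the retrieval pathway were counted in 5 lists of 75 genes in all, which all matched the annotation. In Ern1-LKO replicate 2 alone, a peak among the 698 strongest was found for 11 of 14 ER residents, 3 of 9 COPI coat genes, 2 of 16 other ARF and ARL GTPases, 1 of 15 other exchange factors and 3 of 21 other GTPase-activating proteins. Of all genes, 3.83% had such a peak in that library. In both libraries of a group, 1.3% of all genes had such a peak in Fasted, 2.48% in Fed, 1.86% in Ern1-LKO and 2.36% in WT. The genes named below as strong in both WT and in neither Ern1-LKO library stayed the same without Ern1-LKO replicate 1. Of all genes, 1.15% met the rule without that library. ER residents with a retrieval signal, the cargo of the KDEL receptors, had a peak among the 698 strongest for 9 of 14 genes in both Fasted and 12 of 14 in both Fed libraries, and for 11 of 14 in both Ern1-LKO and 12 of 14 in both WT libraries. In 9 of the 14 this held in all 8 libraries, as in 0.553% of all genes. The 9 were led by the disulfide isomerase genes Pdia3, Pdia6 and Txndc5 and the chaperone gene Hyou1. The Pdia3 peak is shared with Catsper2. P4hb encodes another disulfide isomerase and shares its peak with Arhgdia in most libraries. It was among the strongest in both WT and in neither Ern1-LKO library, as were 0.923% of all genes. Its rank was 2758 in Ern1-LKO replicate 2, with no listed peak in replicate 1, and 594 and 193 in WT livers.

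Of the COPI coat genes, 2 of 9 had a peak among the 698 strongest in both Fasted and 5 of 9 in both Fed libraries, and 2 of 9 in both Ern1-LKO and 6 of 9 in both WT libraries. Arcn1 and Copb1, which encode coat subunits, had such a peak in all 8 libraries, as did 0.553% of all genes. The Arcn1 peak is shared with Ift46. Copb2 and Copg1 were among the strongest in both Fed and in neither Fasted library, as were 0.932% of all genes. Copa, Copg1 and Cope were so in both WT and in neither Ern1-LKO library, as were 0.923% of all genes. The best peaks in the Copg1 window lay away from its start, at a site shared with Hmces, in both Fasted libraries and in Ern1-LKO replicate 2, and Ern1-LKO replicate 1 had none. At the Copg1 start the best peak ranked 208 and 441 in Fed and 223 and 275 in WT livers. Most Copa and Cope peaks are shared with Ncstn and Ddx49.

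The other families of ARF regulators had few strong peaks. Among 16 other ARF and ARL GTPases, 1 had a peak among the 698 strongest in both Fasted and 1 in both Fed libraries, and 2 in both Ern1-LKO and 1 in both WT libraries. Arl8b, a lysosomal GTPase, had such a peak in all 8 libraries, as did 0.553% of all genes. The Arl8b peak is shared with Edem1, a gene of ER-associated degradation. Arf3 was among the strongest in both Ern1-LKO and in neither WT library, as were 0.635% of all genes. It ranked 649 and 319 in Ern1-LKO livers and had no peak and rank 2636 in WT livers. Its peak is shared with LOC115488470. Rank 649 was near the end of the Ern1-LKO replicate 1 list, all 698 peaks of which count as strongest, at a fold of 4.45. Among 15 other ARF exchange factors, 0 had a strong peak in both libraries of any group. Among 21 other ARF GTPase-activating proteins, 1 did in both Fasted, 1 in both Fed, 1 in both Ern1-LKO and 1 in both WT libraries. Git2, whose peaks are shared with Ankrd13a, was among the strongest in both Fasted and in neither Fed library, as were 0.448% of all genes. Its best peak ranked 355 and 190 in Fasted and 3119 in Fed replicate 1, and 743 in Fed replicate 2, where it lay at another site. Smap1 was among the strongest in both Fed and in neither Fasted library, as were 0.932% of all genes. It ranked 710 and 709 in Fasted and 381 and 184 in Fed livers.

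**Figure D5:**
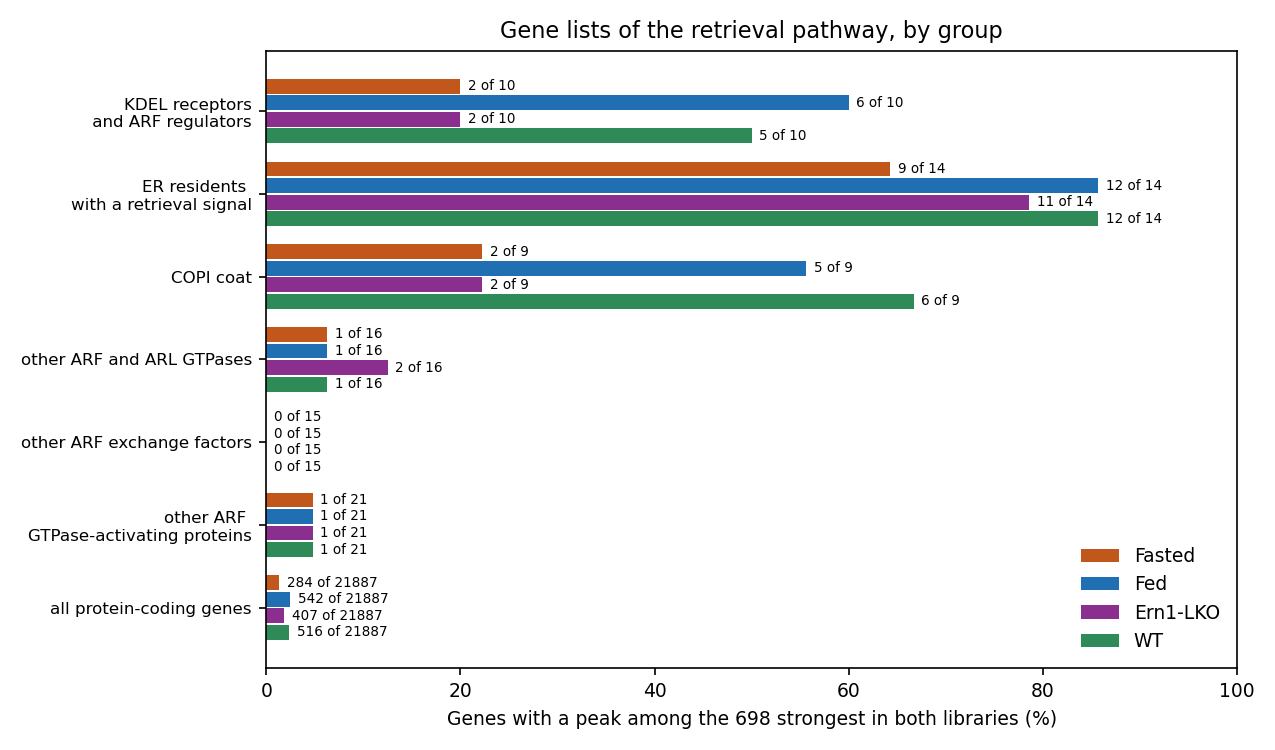
Share of each gene list with a peak among the 698 strongest in both libraries of a group, in percent, with the count beside each bar. The 10 genes reach 20% in Fasted and 60% in Fed, and 20% in Ern1-LKO and 50% in WT, above the other ARF families and, in each group, below the ER residents. The COPI coat genes reach 22.2% in Fasted, 55.6% in Fed, 22.2% in Ern1-LKO and 66.7% in WT. All protein-coding genes lie between 1.3% and 2.48%. The 10 genes and the lists were chosen with earlier results of these data known, which may shape these contrasts.

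By ranks over the 8 libraries, the gene most like Arf1 was Tmem248, with a mean absolute difference of 0.65 in log2 rank. Its ranks were 21 and 34 in Fasted and 37 and 31 in Fed livers, and 117 and 124 in Ern1-LKO and 39 and 20 in WT livers. Maneal, Mtf1 and Yrdc followed at 0.66 with a single peak that they share, and Dock3 at 0.86 with the peak it shares with Manf, a gene of the ER resident list.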

How the data were processed

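XBP-1 chromatin immunoprecipitation was sequenced in 8 libraries of mouse liver, and 12 peak lists were used, 1 per library and 1 pooled list for each of 4 groups. The submitters' processing notes say that reads were converted with bcl2fastq, checked with FastQC 0.11.3, aligned to mm10 with Bowtie2 2.2.5 and searched for peaks with MACS2 2.2.1. The file headers name MACS 2.1.1.20160309 with single-end tags, a q cutoff of 0.05 and 1 tag kept per position. The headers also show that Fasted and Fed lists were called against an input library with 39.67M kept tags, and Ern1-LKO and WT lists against another with 16.51M. Keeping 1 tag per position caps the signal of strong sites, and the number of peaks called depends on depth and enrichment.

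Per the file headers, the lists deposited by the authors hold 3 values per peak that were used here: the pileup signal under the summit, its fold enrichment or ratio over local background, and −log10 of the q-value. No reads or coverage were analysed here.

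Peak summits were assigned to RefSeq genes on GRCm38.p6 within 5 kb of the gene span, so neighbouring genes can share a peak, and peaks carry no strand. Peaks were ranked within each list by −log10 q, with ties broken by fold. A peak among the strongest is 1 of the 698 top peaks of a list. Counts of genes were compared with exact two-sided permutation tests over libraries. Promoter windows and transcription starts came from the RefSeq table of the same build. Python 3.11.15, numpy 2.4.6, pandas 2.3.3 and matplotlib 3.10.9 were used, and on simulated data 2000 of 2000 planted peaks were assigned to their genes.

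The 10 genes and the 5 pathway lists were chosen with earlier results of these data known. All 10 genes are named. Of the lists, genes are named that had a peak among the strongest in both libraries of a group and in neither of its counterpart, or in all 8 libraries (up to 4 by mean rank). For the gene with the best mean rank, the 5 genes with the nearest ranks are named, passing over predicted genes. Alternatives were smaller windows, stricter limits on q or fold, other numbers or orders of top peaks, pooled lists, leaving out each library and a block by replicate number. Other distances and peak overlap were also tried for the leading site. The main tests did not pair libraries by replicate number. Having only 2 pairs in each comparison is no evidence against pairing. In Ern1-LKO and WT, deviations of same-numbered libraries correlated at 0.494, and the block by replicate number is given beside the main tests.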

Additional observations from a re-analysis of the deposited data

How the results depend on the processing

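In all, 86 alternative values were computed, of which 81 kept their direction or stayed near the reported value. The alternatives overlap, so the 81 are not independent checks. The block by replicate number keeps the difference of means by construction. Limits on q and fold left the counts among the 698 strongest peaks as they were. The Fasted minus Fed difference in genes with a peak became 0 with the authors' pooled lists, for which the cause was not tested, and ranged from -3 to 0 when each library was left out. The Ern1-LKO minus WT difference in genes with a peak was 0.5 without Ern1-LKO replicate 1, the opposite sign, and ranged from -7.5 to 0.5 over the libraries left out. The number of genes with a peak in all remaining libraries ranged from 2 to 7, and reached 7 without Ern1-LKO replicate 1. Among the 698 strongest peaks it ranged from 1 to 2, and reached 2 without Fasted replicate 2. The matching shares of all genes with a library left out were not counted. The differences in genes with a peak among the strongest kept their sign throughout, from -4.5 to -2.5 for Fasted minus Fed and from -4 to -2.5 for Ern1-LKO minus WT over the libraries left out. Ordering by fold gave -2 for Fasted minus Fed, where the groups then met at the same count, and 2000 top peaks gave -5. The value of -2.5 for Ern1-LKO minus WT came from 6258 top peaks without Ern1-LKO replicate 1, a setting chosen after seeing the data. Counting genes with any peak by the leading site only, also chosen after seeing the data, gave -2.5 for Fasted minus Fed and -4.5 for Ern1-LKO minus WT. With the replicate number as a block, the differences in genes with a peak among the strongest were both -3.5 (exact sign-flip p = 0.5, the smallest possible), and those in genes with any peak -1.5 and -3.5 (exact sign-flip p = 1.0 each). Deviations of same-numbered libraries correlated at 0.104 in Fasted and Fed over 9217 genes and 0.494 in Ern1-LKO and WT over 597 genes. Top sets of 2000 and 5000 peaks were not run where Ern1-LKO replicate 1 takes part, since its list holds 698 peaks. With 2 libraries a group, the exact permutation test cannot give a p below 0.33, and unequal list lengths limit what an absent peak can show.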
